A study of Mus musculus with 15 samples.

Results

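Expression of genes of glucose metabolism and the fasting response was examined in mouse liver. The genes were Pck1, Fbp1, Pklr, Pfkfb3, Pfkfb1, Ppargc1a, Slc2a2, Slc25a25 and Irs2, chosen by name and read from the probe sets that the platform's gene table assigns to a single symbol, with the brightest probe set standing for each gene. Of these 9 genes, 8 were measured among 19938 genes in all. Pfkfb1, the liver form of the enzyme that Pfkfb3 also encodes, is only named here. All 8 measured genes lay above 4.09, the 40th percentile of all gene values, in 15 of 15 arrays.

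Each of 15 mice gave whole-liver RNA for its own Affymetrix array, with 3 mice in each of 5 groups. NEMO/Jnk1 DKO mice lacked Jnk1 in every cell and NEMO, a regulatory subunit needed to switch on NF-kB, in hepatocytes through an Alb-cre transgene acting on loxP-flanked NEMO. NEMO/Jnk2 DKO mice lacked Jnk2 in every cell and NEMO in hepatocytes in the same way. Jnk1 KO and Jnk2 KO mice lacked only the kinase named, also in every cell. WT mice carried the floxed NEMO gene. All mice were labelled C57BL/6 and male, were 8 weeks old and had chow and water at all times, so none was labelled as fasted, and the hour of death was not given in the sources used here. Each mouse had its own number, and no group lacked NEMO alone, so NEMO loss can be followed here in mice that also lack a Jnk gene. Values are log2 expression levels, and a difference of 1 on this scale is a change by a factor of 2.

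In a fed liver, insulin favours the storage of glucose and its breakdown through glycolysis. In fasting, glucagon raises cAMP in hepatocytes, the factor CREB becomes active, and genes of glucose release such as Pck1 and the coactivator gene Ppargc1a are switched on. Irs2 carries the insulin signal inward and is itself raised in fasted mouse liver. Enzymes of opposite pathways are both made in the liver, and the direction of flux was not measured here.

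The labels were checked on the arrays before any comparison. Mapk9, which encodes JNK2, read 2.39 to 3.28 in the 6 Jnk2-null arrays, against 7.41 to 7.67 in the other arrays. Mapk8, which encodes JNK1, read 5.87 to 6.53 in the 6 Jnk1-null arrays, against 6.58 to 7.03 in the others. The arrays labelled Jnk1 KO replicate 1 and Jnk2 KO replicate 3 carried the pattern of the double knockouts. Ly6d, a gene at 7.88 to 10.48 in the DKO arrays, read 10.12 and 9.70 on them, against 4.67 to 5.35 on the other 7 arrays with intact NEMO. Ikbkg, which encodes NEMO, read 6.75 and 6.24 on them, against 7.03 to 7.41 on those 7 arrays. These 2 arrays are called doubted below, and each result is given as labelled and without them. They leave 2 arrays each in the Jnk1 KO and Jnk2 KO groups. All mice were labelled male, yet Xist, which is transcribed from the inactive X chromosome, stood at 8.68 to 9.17 on 3 arrays, namely NEMO/Jnk1 DKO replicates 1 and 2 and Jnk1 KO replicate 1, while the remaining 12 read 2.40 to 2.82. For the 8 measured genes, fits with a sex term for this female pattern were also made, named below where they change a call. Other genes are given without a sex term. Without the doubted arrays, the pattern was present only in NEMO/Jnk1 DKO arrays, where replicate 3 alone lacked it. In that setting a sex term rests the NEMO/Jnk1 DKO level on replicate 3. It leaves the size of differences between the other groups unchanged and can alter only their SE and p. The part of sex in differences of those other genes was not tested.

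Of the measured genes, 4 carried the differences described below, and their RefSeq promoter windows (GRCm38.p6) are shown because each holds a CRE-like core, the letters ACGTCA on either strand, taken from the site that CREB binds. Each window spans the annotated start and lies mostly upstream of it. Capitals mark the core, or, where it stands alone, the shorter CRE motif TGACG on either strand, which overlaps the core.
Pck1, chr2:173152823-173153122, plus strand: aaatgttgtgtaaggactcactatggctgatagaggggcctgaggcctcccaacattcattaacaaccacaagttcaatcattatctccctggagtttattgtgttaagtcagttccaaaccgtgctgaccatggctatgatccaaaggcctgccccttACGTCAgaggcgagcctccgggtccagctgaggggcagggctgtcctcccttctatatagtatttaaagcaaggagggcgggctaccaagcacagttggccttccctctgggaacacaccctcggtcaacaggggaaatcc
Pfkfb3, chr2:11553880-11554179, minus strand, window 1 of 2: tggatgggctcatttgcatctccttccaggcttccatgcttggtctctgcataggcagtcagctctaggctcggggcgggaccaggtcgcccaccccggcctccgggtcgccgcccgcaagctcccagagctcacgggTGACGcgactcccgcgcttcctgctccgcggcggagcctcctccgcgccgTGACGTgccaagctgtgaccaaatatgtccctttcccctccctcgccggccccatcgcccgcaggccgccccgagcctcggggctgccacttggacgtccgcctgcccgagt
Ppargc1a, chr5:51567676-51567975, minus strand: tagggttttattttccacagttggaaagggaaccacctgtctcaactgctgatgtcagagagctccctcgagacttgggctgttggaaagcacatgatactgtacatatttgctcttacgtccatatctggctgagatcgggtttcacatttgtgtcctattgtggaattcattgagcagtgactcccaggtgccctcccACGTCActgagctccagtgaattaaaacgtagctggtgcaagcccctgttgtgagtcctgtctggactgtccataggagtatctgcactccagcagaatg
Slc25a25, chr2:32424017-32424316, minus strand, window 3 of 3: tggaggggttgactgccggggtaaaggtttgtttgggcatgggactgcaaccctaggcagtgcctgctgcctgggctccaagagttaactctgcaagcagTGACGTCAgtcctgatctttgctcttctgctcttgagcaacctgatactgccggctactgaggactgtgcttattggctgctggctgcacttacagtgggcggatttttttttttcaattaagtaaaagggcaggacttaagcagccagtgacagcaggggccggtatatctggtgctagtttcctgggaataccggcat
The core was found in 7.51% and the shorter motif in 20.8% of all 32851 promoter windows in the table. In the Slc25a25 window the core reads on both strands, so that the capitals form a palindrome. The windows of Fbp1, Pklr, Slc2a2, Irs2 and Pfkfb1, and the remaining windows of Pfkfb3 and Slc25a25, held no core, which says only that these letters are absent there. A match is a description of the sequence and does not show binding.

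In NEMO/Jnk2 DKO livers, Pfkfb3, Slc25a25, Ppargc1a and Pck1 fell below their Jnk2 KO levels once the doubted arrays were left out. In Jnk2 KO livers, Pfkfb3 rose above its WT level with and without those arrays. Jnk1 KO livers had less Slc25a25 and Pfkfb3 than Jnk2 KO livers without them. Fbp1, Pklr, Slc2a2 and Irs2 passed the test in none of the 10 comparisons, as labelled or without the doubted arrays. A gene passed at a limma adjusted p under 0.05 over all 19938 genes.

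As labelled, 1 of the 8 genes passed between Jnk2 KO and WT livers, where 0.411% of all genes passed. No other comparison as labelled called any of the 8. Between NEMO/Jnk1 DKO and Jnk1 KO, limma called 0 of the 8 genes (1 at an unadjusted p under 0.05) and 0% of all genes (908 of them at an unadjusted p under 0.05). Between NEMO/Jnk2 DKO and Jnk2 KO it called 0 of the 8 (3 unadjusted) and 0.00502% of all genes. The NEMO/Jnk1 DKO livers gave 0 of 8 against WT (0 unadjusted), beside 0.0652% of all genes. For NEMO/Jnk2 DKO against WT these were 0 of 8 (3 unadjusted) and 2.63%. For Jnk1 KO against WT they were 0 of 8 (1 unadjusted) and 0.01%. Jnk1 KO against Jnk2 KO gave 0 of 8 (2 unadjusted) beside 0.13%, and NEMO/Jnk1 DKO against NEMO/Jnk2 DKO gave 0 of 8 (0 unadjusted) beside 0.105%. All Jnk1-null against all Jnk2-null arrays gave 0 of 8 (2 unadjusted) beside 0.547%, and the difference between the NEMO effects on the 2 backgrounds gave 0 of 8 (2 unadjusted) beside 0%.

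Without the doubted arrays, 4 of the 8 genes passed between NEMO/Jnk2 DKO and Jnk2 KO livers, all lower, where 5.85% of all genes passed. The median log2 difference of the 8 genes was -0.69 there, beside -0.01 over all genes. Against WT, 3 of 8 were lower in NEMO/Jnk2 DKO, beside 10.6% of all genes, and 1 of 8 was lower in NEMO/Jnk1 DKO, beside 7.91%. Between NEMO/Jnk1 DKO and Jnk1 KO, 1 of 8 passed, and it was higher, beside 5.18%. Between Jnk1 KO and Jnk2 KO, 2 of 8 were lower, beside 0.597%, and between Jnk2 KO and WT 1 of 8 was higher, beside 1.24%. All Jnk1-null against all Jnk2-null arrays gave 1 of 8, lower, beside 1.12%. The remaining comparisons called 0 of the 8: Jnk1 KO against WT (2 unadjusted, beside 0.015% of all genes), NEMO/Jnk1 DKO against NEMO/Jnk2 DKO (1 unadjusted, beside 0.321%) and the difference of the NEMO effects (4 unadjusted, beside 0.01%). Comparisons with WT share the 3 WT arrays, and those with a single knockout share its arrays. None of the 8 genes lies on chromosome 14 or 11, which carry Mapk8 and Mapk9.

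**Figure D1:**
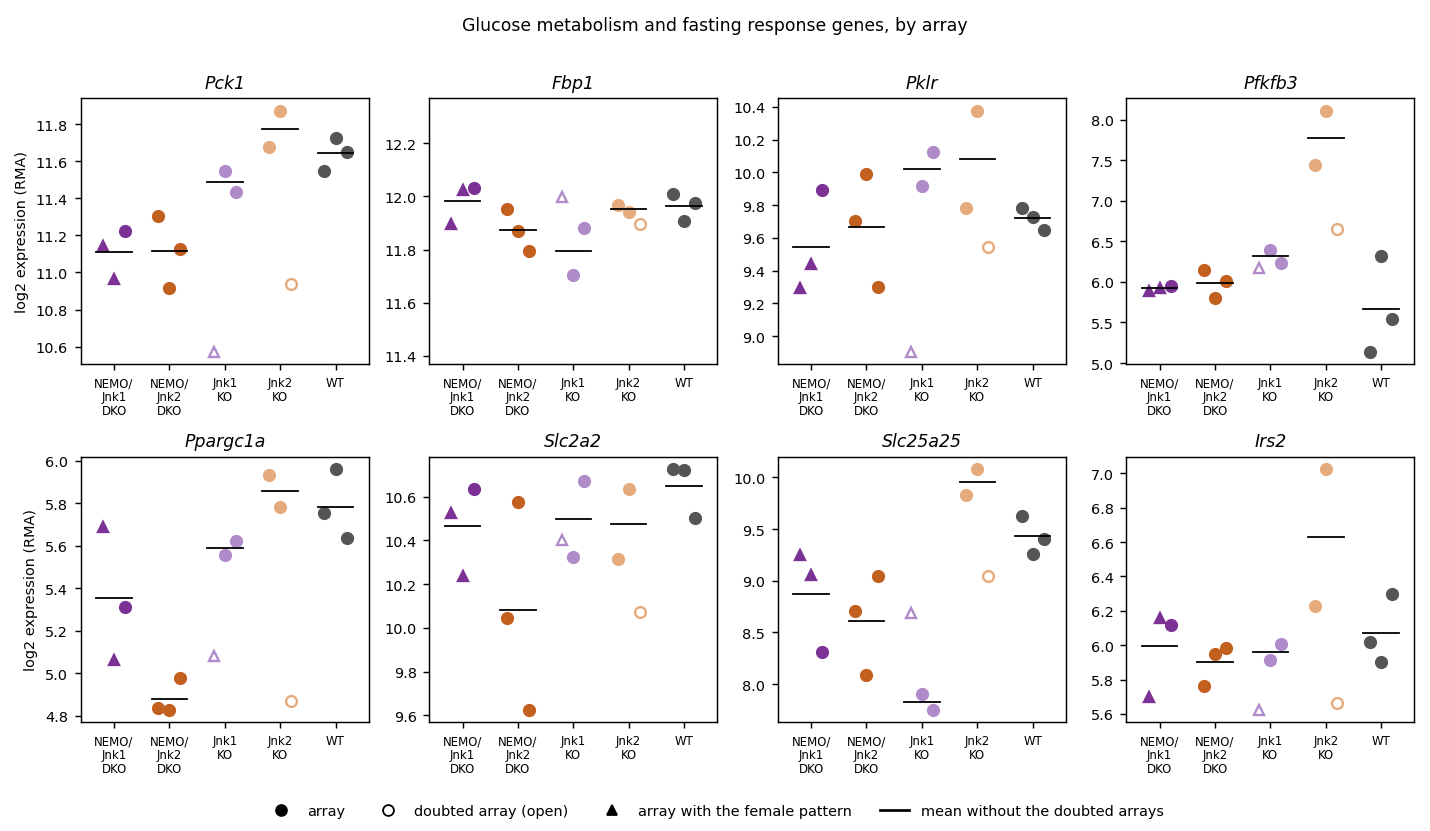
Log2 expression (RMA) of the 8 measured genes on each array, by group. Circles are arrays, triangles those with the female pattern, open symbols the 2 doubted arrays, and bars the group means without them; the y axes differ between panels. The open Jnk2 KO circle is the lowest of its group in all 8 panels, and the Jnk2 KO arrays stand highest for Pfkfb3.

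Pck1, which encodes the cytosolic carboxykinase at the entry of gluconeogenesis, was lower in the double knockouts than in WT livers. It read 11.14, 10.97 and 11.23 in NEMO/Jnk1 DKO livers and 11.30, 10.92 and 11.13 in NEMO/Jnk2 DKO livers. The Jnk1 KO arrays read 11.55 and 11.44 with the doubted one at 10.57, the Jnk2 KO arrays 11.68 and 11.87 with the doubted one at 10.94, and the WT arrays 11.55, 11.73 and 11.65. Every DKO array lay below every WT array, and both doubted arrays lay below every WT array as well. Leaving them out, Pck1 fell by 0.53 in NEMO/Jnk2 DKO against WT (SE 0.11, limma adjusted p = 0.008627) and by 0.66 against Jnk2 KO (SE 0.13, adjusted p = 0.007363). It also fell by 0.53 in NEMO/Jnk1 DKO against WT (SE 0.11, adjusted p = 0.01086). With a sex term added the last difference was -0.42. In that fit NEMO/Jnk1 DKO rests on replicate 3, its only array without the female pattern, so the fit cannot settle the call. As labelled the limma adjusted p of the 3 differences lay at 0.2706, 0.7463 and 0.3072. Between NEMO/Jnk1 DKO and Jnk1 KO the difference of -0.38 without the doubted arrays did not pass (limma adjusted p = 0.1141), although these arrays did not overlap. On all arrays this difference was -0.07 as labelled and 0.11 with a sex term. Pck1 averaged 11.11 ± 0.13 in NEMO/Jnk1 DKO livers, and 11.12 ± 0.19 in livers of NEMO/Jnk2 DKO mice (SD, n = 3 each). Its order of group means without the doubted arrays was NEMO/Jnk1 DKO, NEMO/Jnk2 DKO, Jnk1 KO, WT and Jnk2 KO from low to high, with the last 3 not separated by the test.

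Fbp1, the bisphosphatase that opposes phosphofructokinase on the way to glucose, was the steadiest of the 8 genes. Its values ran from 11.90 to 12.03 in NEMO/Jnk1 DKO, from 11.80 to 11.95 in NEMO/Jnk2 DKO, from 11.71 to 11.88 in Jnk1 KO with the doubted array above both, from 11.90 to 11.97 in Jnk2 KO and from 11.91 to 12.01 in WT livers. As labelled, the arrays of all 5 groups overlapped. The largest of its 10 differences as labelled in size was 0.19, that between the NEMO effects on the 2 backgrounds (adjusted p = 0.9996). Within groups its standard deviation was 0.0861, against a median of 0.154 over all genes.

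Pklr, the pyruvate kinase of liver and red cells at the last step of glycolysis, passed no comparison. It read 9.29, 9.44 and 9.89 in NEMO/Jnk1 DKO livers, and 9.70, 9.99 and 9.30 in livers of NEMO/Jnk2 DKO mice. Jnk1 KO livers read 9.92 and 10.12 with the doubted array at 8.90, the lowest of all 15. Jnk2 KO livers read 9.78 and 10.38 with the doubted array at 9.54, and WT livers 9.78, 9.73 and 9.65. The groups overlapped widely. Without the doubted arrays the NEMO/Jnk1 DKO arrays lay below both Jnk1 KO arrays, with a difference of -0.48 (SE 0.22, limma adjusted p = 0.2857). On all arrays this difference was -0.10 as labelled and 0.17 with a sex term. Pklr is also made in red cells, so the 3 measured erythroid markers were read beside it. Their mean log2 level was 5.26 to 5.63 in NEMO/Jnk1 DKO, 5.19 to 5.60 in NEMO/Jnk2 DKO, 5.54 and 5.71 in the undoubted Jnk1 KO, 5.53 and 5.69 in the undoubted Jnk2 KO and 5.46 to 5.70 in WT arrays, with the doubted arrays at 5.09 and 5.43. The markers did not move together. Alas2, the haem synthesis enzyme of erythroid cells, stood at 7.77 to 8.18 on the 3 arrays of the female pattern, against 8.53 to 9.57 on the others. Slc4a1, the anion exchanger of red cells, read 4.75 to 4.90 on those 3 arrays, against 4.02 to 4.86 on the others, and Epb42, a red cell membrane protein gene, 2.76 to 3.51, against 2.65 to 3.34. Their part in the Pklr values was not tested.

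Pfkfb3, a kinase and phosphatase that makes the fructose bisphosphate that activates phosphofructokinase, showed the widest range of group means of the 8 genes as labelled. It read 5.89, 5.92 and 5.95 in NEMO/Jnk1 DKO livers, and 6.14, 5.80 and 6.01 in livers of NEMO/Jnk2 DKO mice. Jnk1 KO livers read 6.40 and 6.23 with the doubted array at 6.18, Jnk2 KO livers 7.44 and 8.11 with the doubted array at 6.65, and WT livers 5.13, 6.32 and 5.54. The 3 Jnk2 KO arrays, the doubted one included, lay above all other 12 arrays. Pfkfb3 averaged 7.40 ± 0.73 in Jnk2 KO and 5.66 ± 0.60 in WT livers (SD, n = 3 each). It rose by 1.74 as labelled (SE 0.31, 95% confidence interval 1.07 to 2.40, 3.34-fold, limma adjusted p = 0.03089) and by 2.11 without the doubted arrays (SE 0.27, 4.33-fold, adjusted p = 0.002439). The within-group SD of Pfkfb3 pooled over all 5 groups, on which the limma test as labelled draws, was 0.434. The call as labelled was lost in a fit to the Jnk2 KO and WT arrays alone (limma adjusted p = 0.1878). It was also lost without Jnk2 KO replicate 1 (1.72, adjusted p = 0.06504) or replicate 2 (1.38, 0.1105), without WT replicate 1 (1.47, 0.1249) or replicate 3 (1.68, 0.1216), and without NEMO/Jnk1 DKO replicate 2 (1.74, 0.05244).

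On the Jnk2-null background the loss of NEMO went with a lower Pfkfb3 level. The difference between NEMO/Jnk2 DKO and Jnk2 KO was -1.41 as labelled (SE 0.31, limma adjusted p = 0.3289) and -1.79 without the doubted arrays (SE 0.27, 95% confidence interval -2.37 to -1.21, adjusted p = 0.001896). Without Jnk2 KO replicate 3 alone it was also called (-1.79, adjusted p = 0.01226). NEMO/Jnk2 DKO and WT arrays overlapped, with a difference of 0.32 (adjusted p = 0.4899 without the doubted arrays). Jnk1 KO livers had 1.46 less Pfkfb3 than Jnk2 KO livers without the doubted arrays (log2 difference -1.46, SE 0.29, adjusted p = 0.04662), which a sex term moved to an adjusted p of 0.05962. The NEMO effect on the Jnk1-null background was -0.39 (adjusted p = 0.5331), and the difference of 1.40 between the NEMO effects on the 2 backgrounds did not pass (adjusted p = 0.374).

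Slc2a2, the low-affinity glucose transporter of hepatocytes, ran from 10.24 to 10.63 in NEMO/Jnk1 DKO, from 9.62 to 10.57 in NEMO/Jnk2 DKO, from 10.33 to 10.67 in Jnk1 KO, from 10.07 to 10.64 in Jnk2 KO and from 10.50 to 10.73 in WT livers. NEMO/Jnk2 DKO held both the lowest array of all 15, replicate 3, and an array within the WT range. Its difference from WT was -0.57 (SE 0.20, adjusted p = 0.09462 without the doubted arrays), with the lowest adjusted p of the 10 comparisons of this gene.

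Slc25a25, a carrier of ATP-Mg and phosphate in the inner mitochondrial membrane, was lowest in Jnk1 KO livers. It read 9.25, 9.05 and 8.31 in NEMO/Jnk1 DKO livers, and 8.71, 8.08 and 9.04 in livers of NEMO/Jnk2 DKO mice. Jnk1 KO livers read 7.90 and 7.75 with the doubted array at 8.69, Jnk2 KO livers 9.83 and 10.08 with the doubted array at 9.05, and WT livers 9.63, 9.26 and 9.41. The 2 undoubted Jnk1 KO arrays were the lowest of all 15 and the 2 undoubted Jnk2 KO arrays the highest. Jnk1 KO differed from Jnk2 KO by -1.54 as labelled (SE 0.33, limma adjusted p = 0.1228) and by -2.13 without the doubted arrays (SE 0.30, 95% confidence interval -2.78 to -1.49, adjusted p = 0.005144). The call was also made when Jnk1 KO replicate 1 (-1.83, adjusted p = 0.03508) or Jnk2 KO replicate 3 (-1.85, 0.0264) alone was left out, and with a sex term on all arrays (-1.83, 0.01323). Against WT, Jnk1 KO stood at -1.61 without the doubted arrays, which did not pass (SE 0.27, limma adjusted p = 0.1795) but did with a sex term added (adjusted p = 0.03358). Neither group then held an array of the female pattern, so the sex term did not adjust this difference and altered only its SE and p.

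The loss of NEMO went with Slc25a25 in opposite directions on the 2 backgrounds. When the doubted arrays were omitted it fell by 1.35 in NEMO/Jnk2 DKO against Jnk2 KO (SE 0.27, limma adjusted p = 0.01079) and by 0.82 against WT (SE 0.24, adjusted p = 0.04884). It rose by 1.05 in NEMO/Jnk1 DKO against Jnk1 KO (SE 0.27, adjusted p = 0.0432). The difference between the 2 NEMO effects was 2.40 and did not pass (SE 0.39, adjusted p = 0.07233, and 1.80 with an adjusted p of 0.9996 as labelled). With a sex term the rise on the Jnk1-null background was 0.49. In that fit NEMO/Jnk1 DKO rests on replicate 3, its only array without the female pattern, so the fit cannot settle the call. Among the 6 Jnk1-null arrays, the 3 of the female pattern read 8.69 to 9.25 and the other 3 read 7.75 to 8.31. Over all Jnk1-null against all Jnk2-null arrays the difference was -0.94 without the doubted arrays (SE 0.19, adjusted p = 0.03727) and -0.64 as labelled (adjusted p = 0.3646).

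Ppargc1a, the coactivator PGC-1alpha that drives genes of gluconeogenesis and mitochondria, was lowest in NEMO/Jnk2 DKO livers. It read 5.69, 5.06 and 5.31 in NEMO/Jnk1 DKO livers, and 4.84, 4.83 and 4.98 in livers of NEMO/Jnk2 DKO mice. Jnk1 KO livers read 5.56 and 5.62 with the doubted array at 5.08, Jnk2 KO livers 5.94 and 5.78 with the doubted array at 4.87, and WT livers 5.75, 5.96 and 5.64. All NEMO/Jnk2 DKO arrays lay below all NEMO/Jnk1 DKO, Jnk1 KO and WT arrays, and the doubted Jnk2 KO array lay among them. Ppargc1a fell by 0.98 in NEMO/Jnk2 DKO against Jnk2 KO (SE 0.16, limma adjusted p = 0.00273) and by 0.90 against WT (SE 0.14, adjusted p = 0.001094) without the doubted arrays. As labelled these were -0.65 (limma adjusted p = 0.5628) and -0.90 (adjusted p = 0.06256). The second was called with Jnk1 KO replicate 1 (adjusted p = 0.02846) or Jnk2 KO replicate 3 (adjusted p = 0.0137) alone left out. It was also called with a sex term (adjusted p = 0.04609), which did not adjust its size, since neither group held an array of the female pattern. NEMO/Jnk1 DKO stood at 0.47 over NEMO/Jnk2 DKO without overlap, which did not pass (adjusted p = 0.2867 without the doubted arrays). A second probe set of Ppargc1a read 2.70 to 3.91, below 4.09 on all arrays, and was not used.

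Irs2, which links the insulin receptor to its kinase cascade, read 5.70, 6.16 and 6.12 in NEMO/Jnk1 DKO livers, and 5.76, 5.95 and 5.98 in livers of NEMO/Jnk2 DKO mice. Jnk1 KO livers read 5.91 and 6.01 with the doubted array at 5.62, Jnk2 KO livers 6.23 and 7.03 with the doubted array at 5.66, and WT livers 6.02, 5.90 and 6.30. Jnk2 KO replicate 2 stood highest of all arrays, and the other 14 lay between 5.62 and 6.30. The difference of -0.73 between NEMO/Jnk2 DKO and Jnk2 KO without the doubted arrays was the closest to a call (SE 0.21, limma adjusted p = 0.05669).

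**Figure D2:**
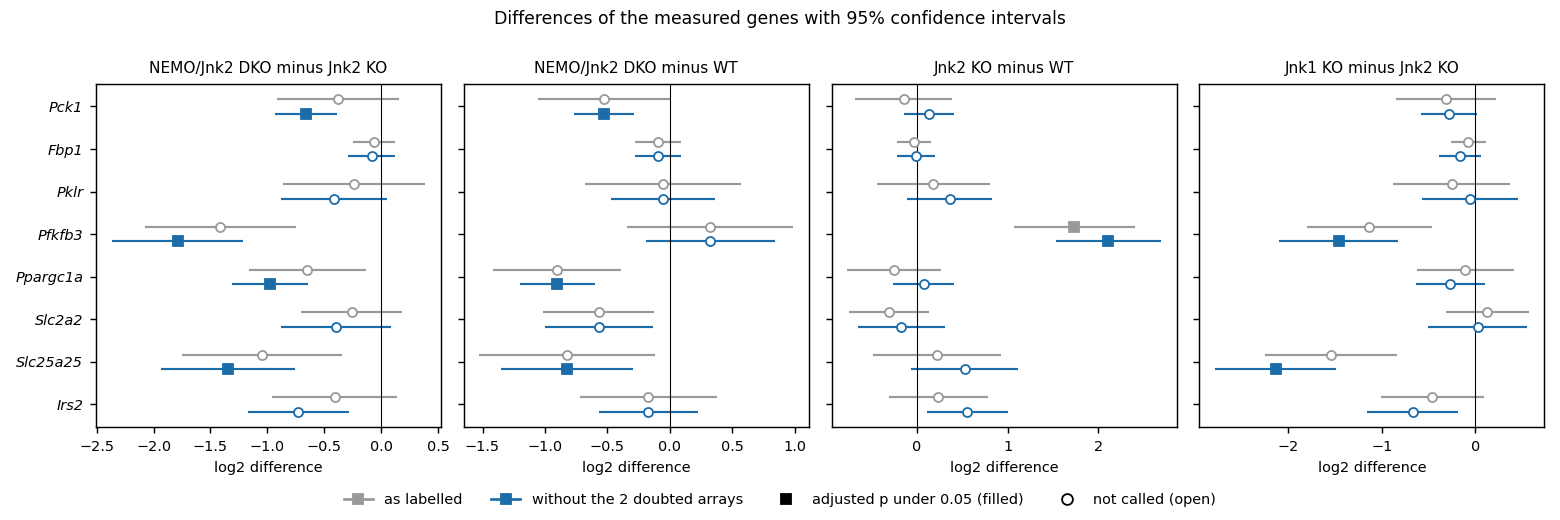
Log2 differences of the 8 measured genes in 4 comparisons, with 95% confidence intervals from limma. Grey shows the fit as labelled and blue the fit without the 2 doubted arrays; filled squares passed at an adjusted p under 0.05. Pfkfb3 lies at 1.74 and 2.11 between Jnk2 KO and WT, and 4 blue squares lie below 0 between NEMO/Jnk2 DKO and Jnk2 KO.

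The arrays of a group differed from each other in these genes as a set. Jnk2 KO replicate 3, one of the doubted arrays, was the lowest of its group in 8 of 8 genes, and Jnk2 KO replicate 2 the highest in 6. Jnk1 KO replicate 1, the other doubted array, was the lowest of its group in 5 genes (Pck1, Pklr, Pfkfb3, Ppargc1a and Irs2) and the highest in Fbp1 and Slc25a25. The mean of the 8 log2 values lay at 8.61 to 8.68 in NEMO/Jnk1 DKO, 8.48 to 8.56 in NEMO/Jnk2 DKO, 8.66 and 8.72 in the undoubted Jnk1 KO, 9.15 and 9.48 in the undoubted Jnk2 KO and 8.83 to 8.94 in WT arrays, and the doubted arrays read 8.43 and 8.58. The within-group standard deviation of 7 genes lay between 0.282 and 0.461, at percentiles 89.7 to 96.7 of all genes, whose median was 0.154. Without the doubted arrays that of Pck1 was 0.137, at percentile 45.6, while that of Slc25a25 was 0.367, at percentile 97.6.

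Markers of other cell types differed between the same groups. The mean log2 level of 12 macrophage genes was 6.74 to 7.17 in NEMO/Jnk1 DKO, 6.70 to 7.08 in NEMO/Jnk2 DKO and 7.09 and 7.16 in the doubted arrays, against 5.60 to 5.68 in the other Jnk1 KO, 5.69 to 5.73 in the other Jnk2 KO and 5.36 to 5.74 in WT arrays. Without the doubted arrays 7 of these 12 genes were higher in NEMO/Jnk2 DKO than in Jnk2 KO, beside 5.85% of all genes called in either direction. Against WT, 10 of 12 were higher, beside 10.6%. The 9 measured hepatocyte markers averaged 12.54 to 12.74 on every array, but they did not all move together. Cyp2e1 read 11.96 to 12.07 in NEMO/Jnk2 DKO against 12.67 to 12.79 in WT arrays, and Hpx 12.81 to 13.01 against 12.60 to 12.66. The 9 stellate cell genes averaged 6.99 to 7.31 in NEMO/Jnk2 DKO, against 5.71 to 6.07 in the undoubted Jnk2 KO and 6.07 to 6.24 in WT arrays. Fewer cells of a type and less RNA per cell cannot be told apart in whole liver, and the part of these cells in the lower Pck1, Ppargc1a, Slc25a25 and Pfkfb3 levels was not tested. Between Jnk2 KO and WT, where Pfkfb3 rose, limma called 0 of the 12 macrophage genes without the doubted arrays (1 at an unadjusted p under 0.05), beside 1.24% of all genes, and 0 of 8 neutrophil genes (4 unadjusted). The neutrophil genes averaged 3.57 to 3.68 in those Jnk2 KO arrays against 3.19 to 3.38 in WT arrays, and the part of either cell type in the Pfkfb3 level was not tested.

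The 9 lists of other genes of glucose handling and fasting held 182 measured genes, and their calls as labelled were few. Limma called 6 of the 182 between NEMO/Jnk2 DKO and WT, 2 higher and 4 lower, beside 2.63% of all genes. It called 1 between Jnk1 KO and Jnk2 KO, beside 0.13%. Each other comparison gave 0 (5 to 47 at an unadjusted p under 0.05), beside 0% to 0.547%. With the doubted arrays left out, 14 were higher and 11 lower in NEMO/Jnk2 DKO against Jnk2 KO, beside 5.85% of all genes. In NEMO/Jnk1 DKO against Jnk1 KO, 11 were higher and 5 lower, beside 5.18%. Against WT, NEMO/Jnk2 DKO had 15 higher and 28 lower, beside 10.6%, and NEMO/Jnk1 DKO 11 higher and 11 lower, beside 7.91%. In Jnk2 KO against WT, 4 were higher and 1 lower, beside 1.24%. The values that follow are without the doubted arrays and without a sex term. Counts of single lists are to be read beside these same shares of all genes.

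Among 18 other genes of gluconeogenesis, 2 were lower and 0 higher in NEMO/Jnk2 DKO than in Jnk2 KO. G6pc, the phosphatase subunit that releases free glucose, read 10.87, 10.999 and 10.67 in NEMO/Jnk2 DKO, 11.78 and 12.15 in Jnk2 KO with the doubted array at 11.04, and 11.65, 11.86 and 11.73 in WT livers. Its difference from Jnk2 KO was -1.12 (SE 0.15, limma adjusted p = 0.001111) and that from WT -0.90 (SE 0.14, adjusted p = 0.001033). Slc37a4, the transporter that feeds this phosphatase, fell by 0.92 against Jnk2 KO (SE 0.15, adjusted p = 0.002929), and against WT its -0.37 did not pass (adjusted p = 0.1017). In NEMO/Jnk1 DKO livers G6pc read 11.39 to 11.49, and 0 of the 18 genes passed against Jnk1 KO (3 at an unadjusted p under 0.05).

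Of 21 other glycolysis genes, Hk2 (0.91), Pfkp (0.86) and Pkm (0.82) were higher in NEMO/Jnk2 DKO than in Jnk2 KO and 0 lower. In NEMO/Jnk1 DKO against Jnk1 KO, Pkm was the 1 gene of the 21 that passed. Pkm, the pyruvate kinase of most tissues other than liver, read 7.68 to 8.04 in NEMO/Jnk2 DKO, against 7.23 and 6.96 in Jnk2 KO (SE 0.15, limma adjusted p = 0.005079), and it was 0.67 higher in NEMO/Jnk1 DKO than in Jnk1 KO (adjusted p = 0.01694). Pygb, the brain form of glycogen phosphorylase, was 0.97 higher on the Jnk2-null and 0.99 higher on the Jnk1-null background (limma adjusted p = 0.006753 and 0.006247). Pkm also read 7.79 and 7.74 on the doubted arrays, where macrophage genes were high. The part of macrophages and other cell types in the higher Hk2, Pfkp, Pkm and Pygb levels was not tested.

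Of 15 genes of pyruvate and lactate handling, 2 were higher and 2 lower in NEMO/Jnk2 DKO than in Jnk2 KO. Pdk4, a fasting-induced kinase that shuts off pyruvate dehydrogenase, read 7.37, 7.18 and 6.55 in NEMO/Jnk2 DKO and 5.30 and 5.26 in Jnk2 KO livers (difference 1.76, SE 0.35, limma adjusted p = 0.009183). It was also higher in NEMO/Jnk1 DKO than in Jnk1 KO, by 1.96 (SE 0.35, adjusted p = 0.004878). Pdk1, a kinase of the same family, was lower by contrast in NEMO/Jnk2 DKO, at -1.11 (SE 0.15, adjusted p = 0.001164). Pdp1, the phosphatase that turns pyruvate dehydrogenase back on, stood at 0.59 and Pdhx, a subunit of that complex, at -0.44 (adjusted p = 0.01725 and 0.04471).

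The list of 25 other genes raised in fasted mouse liver moved both ways, with 4 higher and 4 lower in NEMO/Jnk2 DKO than in Jnk2 KO. In Jnk2 KO against WT, 3 of the 25 rose and 0 fell. Lpin1, a phosphatidate phosphatase and coactivator, read 10.57 and 11.08 in Jnk2 KO against 7.99, 8.98 and 8.51 in WT livers, a rise of 2.33 (SE 0.44, limma adjusted p = 0.02224). Ddit4, an inhibitor of mTOR signalling, rose by 1.82 (SE 0.31, adjusted p = 0.01183). Igfbp1, a secreted binding protein of insulin-like growth factors that insulin represses, rose by 1.41 (SE 0.23, adjusted p = 0.01072). These 3 were lower in NEMO/Jnk2 DKO than in Jnk2 KO, by -2.15 for Lpin1, -1.36 for Ddit4 and -1.09 for Igfbp1 (adjusted p = 0.01216, 0.01993 and 0.01496), while Acot2, a mitochondrial thioesterase of fatty acid metabolism, stood 0.98 higher (adjusted p = 0.02601). Jnk1 KO livers had less Igfbp1 than Jnk2 KO livers, at 8.44 and 8.32 against 11.05 and 11.75 (difference -3.02, SE 0.26, adjusted p = 9.608e-05, and -2.19 with 0.0443 as labelled), and less Ddit4 (-1.72, adjusted p = 0.03935).

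Regulators of these genes changed in part. Cebpb, a factor that binds the Pck1 promoter, read 8.77 and 8.87 in Jnk2 KO with the doubted array at 7.79, against 7.29, 8.11 and 7.33 in WT livers, a rise of 1.25 (SE 0.23, limma adjusted p = 0.01994), and it was the only one of 28 transcription factor genes called there. It was lower in NEMO/Jnk2 DKO than in Jnk2 KO (-0.93, adjusted p = 0.03242), as was Klf15, a fasting-induced factor of amino acid use (-0.93, adjusted p = 0.002094), while Atf3, a stress-induced factor, was higher (1.57, adjusted p = 0.002022). NEMO/Jnk1 DKO against Jnk1 KO had 2 of the 28 higher and 5 lower, among them Atf3 (2.15), Mlxipl, the glucose-sensing factor ChREBP (-1.09), Sik1, a kinase that restrains CREB coactivators (0.95), and Klf15 (-0.69). Of 27 genes of insulin and glucagon signalling, Insr, the insulin receptor, was lower in NEMO/Jnk2 DKO than in Jnk2 KO (-0.56, limma adjusted p = 0.01106) and Prkar2b, a regulatory subunit of protein kinase A, higher (0.54, adjusted p = 0.0481). Prkar2b read only 3.18 to 3.93 on these arrays, below 4.09, the 40th percentile of all gene values.

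Of 12 sugar and ATP-Mg carriers, 2 were higher and 0 lower in NEMO/Jnk2 DKO than in Jnk2 KO, Slc25a24 and the sodium-coupled glucose carrier gene Slc5a1 (0.47, limma adjusted p = 0.01009). Slc5a1 was dim, at 4.19 to 4.33 in NEMO/Jnk2 DKO against 3.76 and 3.80 in Jnk2 KO, on either side of 4.09. Slc25a24, a second ATP-Mg carrier, was higher in NEMO/Jnk2 DKO than in Jnk2 KO (0.95, limma adjusted p = 0.002576) and in NEMO/Jnk1 DKO than in Jnk1 KO (0.80, adjusted p = 0.00676). The part of other cell types in these higher Slc25a24 levels was not tested. Slc2a1, the glucose transporter of most tissues, was lower in Jnk2 KO than in WT (-0.74, adjusted p = 0.0227). Among 16 clock genes limma called 0 between Jnk2 KO and WT (5 at an unadjusted p under 0.05), where Nr1d1, a repressor of the clock that also represses gluconeogenic genes, read 6.44 and 7.18 in Jnk2 KO with the doubted array at 5.40, against 8.40, 8.52 and 8.88 in WT livers (adjusted p = 0.2214). Jnk2 KO and WT arrays did not overlap for Nr1d1. The mean log2 level of the 16 clock genes was 5.69 to 5.91 in NEMO/Jnk1 DKO, 5.71 to 5.79 in NEMO/Jnk2 DKO and 6.03 to 6.21 in WT arrays. It was 5.97 and 6.24 in the undoubted Jnk1 KO, 5.80 and 5.98 in the undoubted Jnk2 KO and 5.77 and 5.67 in the doubted arrays. The time of day at death was not tested as a source of differences, those of Pck1 and Ppargc1a included. G6pc, Igfbp1 and Nr1d1 lie on chromosome 11, which also carries Mapk9, and the part of sequence linked to the deleted gene in their levels was not tested.

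**Figure D3:**
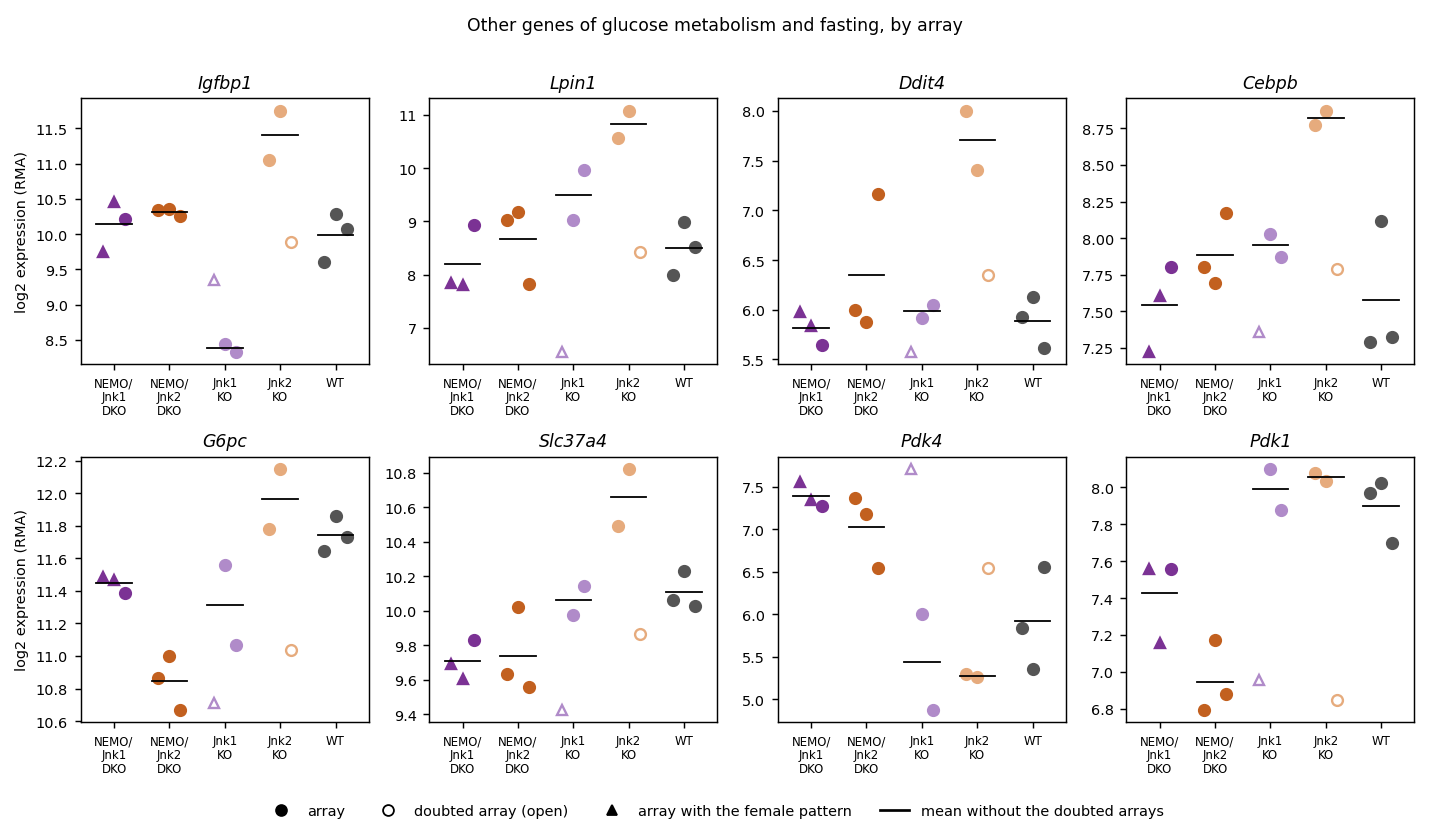
Log2 expression (RMA) of 8 other genes of glucose metabolism and fasting on each array, by group, with the same symbols as for the 8 measured genes. Igfbp1 stands at 11.05 and 11.75 on the undoubted Jnk2 KO arrays and at 8.44 and 8.32 on the undoubted Jnk1 KO arrays; G6pc is lowest in NEMO/Jnk2 DKO and the doubted arrays.

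**Figure D4:**
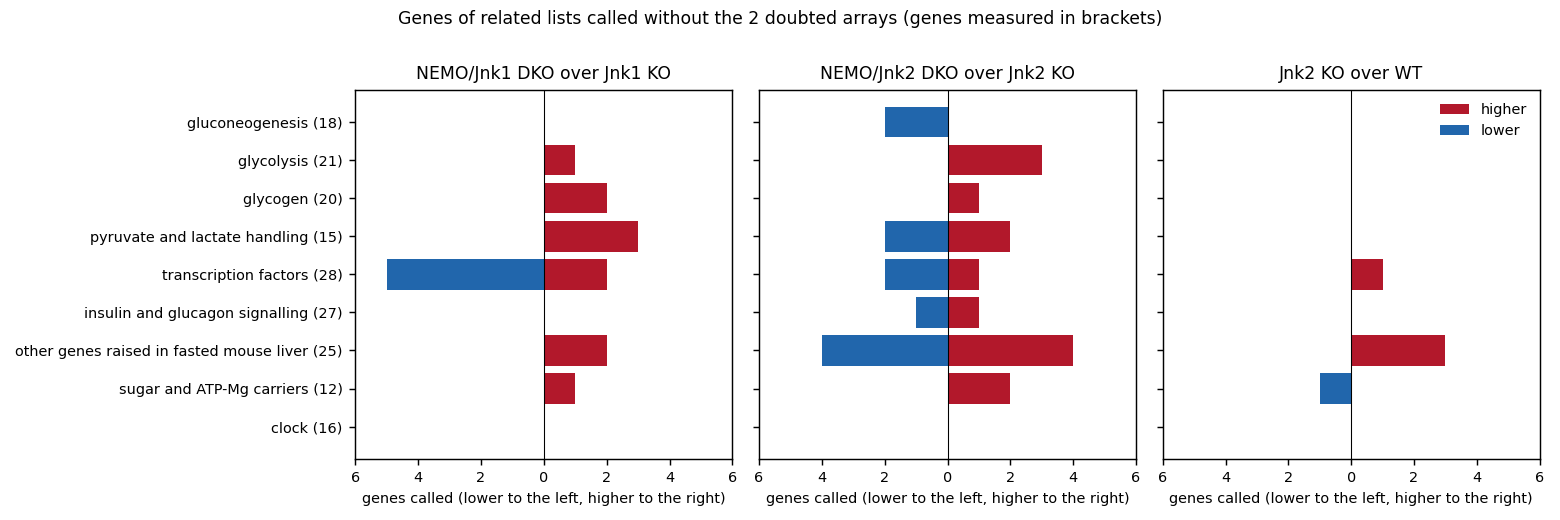
Number of genes of each of 9 related lists called higher (red, right) or lower (blue, left) in 3 comparisons without the 2 doubted arrays, with the genes measured in brackets. Gluconeogenesis shows 2 lower genes in NEMO/Jnk2 DKO over Jnk2 KO, and 3 genes of fasted liver are higher in Jnk2 KO over WT.

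The genes whose profile was most like that of a called gene were found over all 19938 genes, as a description over arrays that share their normalization and groups. Pck1 was most like Fbxo31 (Pearson r = 0.945, Spearman rho = 0.932), Dnase2b (0.921, 0.914) and Pank1 (0.920, 0.904) over 15 arrays, and Fbxo31 was also the closest over the 13 undoubted arrays (r = 0.946). Ppargc1a was most like Hsd11b1 (r = 0.952, rho = 0.939), the reductase that regenerates active glucocorticoid, and Upb1 (0.948, 0.911), in the same order over 13 arrays (r = 0.957 and 0.943). Pfkfb3 was closest to Tbc1d8 (r = 0.918, rho = 0.760) and Cldn14 (0.896, 0.627) over 15 arrays and to St3gal5 (0.939, 0.852) and Tbc1d8 (0.938, 0.831) over 13. Its rank correlations were lower than its Pearson values. Slc25a25 had the weakest likeness, with Ang2 at r = 0.864 (rho = 0.868) over 15 arrays and 0.878 (0.923) over 13, and with Zc3h12a at 0.818 and 0.858. Ang2 lies on chromosome 14, as does Mapk8.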

How the data were processed

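Liver RNA of 15 mice was measured, 1 Affymetrix array per mouse. The authors deposited log2 expression values made with RMA, per the submitters' processing notes. Base 2 is read from the range of the values, and software versions are not given in the sources used here. Array medians lay between 4.26 and 4.38, and arrays correlated at r = 0.976 to 0.991. Of 35556 probe sets, 21789 had 1 gene symbol in the platform table, 1621 several and 12146 were not listed there. The brightest probe set stood for each of 19938 genes.

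Groups were taken from the labels. All 10 comparisons were fitted to the group means of all 15 arrays with limma 3.58.1 in R 4.3.3 (lmFit, eBayes), and p-values were adjusted by Benjamini-Hochberg over all genes, with a threshold of 0.05. The code was tested on simulated data. P-values set each difference against the spread between arrays within groups, pooled over all 5 groups and moderated by eBayes. The number of arrays per group limits the precision. Leaving out each array and 13 other alternatives were run.

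The genes, the 19 lists (10 of them cell type markers) and the doubt about 2 arrays were chosen with earlier results of these data known. Of 280 list symbols, 254 were measured. From each list and comparison, up to 4 called genes with the largest difference could be named, or the 2 with the lowest p where none passed. Likeness was ranked by Pearson r. Promoter windows came from RefSeq (GRCm38.p6). A planned comparison of the Pfkfb1 and Pfkfb3 proteins was not run.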

Additional observations from a re-analysis of the deposited data

Results flagged for a closer look

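Igfbp1, an insulin-repressed gene of the fasted liver, differed between the Jnk-null backgrounds in its response to NEMO loss. Without the 2 doubted arrays it was 1.76 higher in NEMO/Jnk1 DKO than in Jnk1 KO livers and stood at -1.09 in NEMO/Jnk2 DKO against Jnk2 KO livers. The difference between these log2 effects was 2.84 (SE 0.33, limma adjusted p = 0.01898). As labelled it was 2.01 (SE 0.54, limma adjusted p = 0.9996). These fits held no sex term. NEMO/Jnk1 DKO replicates 1 and 2 had the female pattern, and the part of sex in this difference was not tested.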

How the results depend on the processing

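The 13 differences that were called, as labelled or without the 2 doubted arrays, kept their sign under the alternatives run. Some uncalled differences did not: Pck1 between NEMO/Jnk1 DKO and Jnk1 KO was -0.07 as labelled and 0.11 with a sex term, Pklr between Jnk1 KO and WT -0.07 as labelled and 0.30 without the doubted arrays, and Slc25a25 between NEMO/Jnk1 DKO and NEMO/Jnk2 DKO 0.26 as labelled and -0.31 with a sex term. The repeats of these 13 were held against the fit as labelled, where only Pfkfb3 between Jnk2 KO and WT was called. With 1 array left out, 183 kept their side of the threshold, 7 gained a call and 5 lost it. Under the other alternatives these numbers were 138, 30 and 1. Keeping the side meant staying called for Pfkfb3 between Jnk2 KO and WT (10 with 1 array left out) and staying uncalled for the rest. The fit without the doubted arrays was among the other alternatives and also served to choose the 13. Its calls among those gained were thus fixed beforehand. The number of the 8 genes called moved as follows. Between NEMO/Jnk1 DKO and Jnk1 KO it was 1 without the 2 doubted arrays, against 0 as labelled. Between NEMO/Jnk2 DKO and Jnk2 KO it was 4 without the doubted arrays, with or without a sex term, and 0 to 2 with 1 array left out, the 2 being Pfkfb3 and Ppargc1a without Jnk2 KO replicate 3. Between NEMO/Jnk1 DKO and WT it was 1 (Pck1) without the doubted arrays and 1 in a fit to the arrays compared. Between NEMO/Jnk2 DKO and WT it was 3 without the doubted arrays, with or without a sex term, 2 in a fit to the arrays compared, and 1 (Ppargc1a) with array weights, a filter on dim probe sets, a sex term, or without the 3 arrays of the female pattern. With 1 array left out it was 0 to 1. For Jnk1 KO against WT it was 1 (Slc25a25) without the doubted arrays and with a sex term. For Jnk2 KO against WT it was 0 in a fit to the arrays compared, against 1 as labelled, and 0 to 1 with 1 array left out. For Jnk1 KO against Jnk2 KO it was 2 without the doubted arrays, 1 with a sex term added to that or alone, 1 when the 3 female-pattern arrays were omitted, and 0 to 2 with 1 array left out. For all Jnk1-null against all Jnk2-null arrays it was 1 without the doubted arrays. The cause of these changes was not tested. Omitting the doubted arrays leaves 2 arrays in each single knockout group.

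Replicate numbers are shared between groups. Deviations of same-numbered arrays correlated between -0.395 and 0.304, and those of other pairs between -0.463 and 0.569, so the numbers were not taken to pair the mice. With the replicate block, 1 gene was called between Jnk2 KO and WT (Pfkfb3, limma adjusted p = 0.03496) and 0 in the other comparisons, the same counts as without it.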
